A study of Mus musculus with 14 samples.

Results

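The comparison set cells that received a control siRNA (SiC) against cells that received nothing (NT), in mSCC-38, a mouse cell line from a chemically induced skin squamous cell carcinoma. It asks what the transfection lipid RNAimax and a duplex RNA with no stated mouse target did on their own to the transcripts of these cells. The members are the 3 SiC and 4 NT arrays, 7 of the 14 in the series, chosen by their labels alone. The other 7 arrays, 4 with the siRNA Si1AK and 3 with Si2AK, carry the same lipid with another duplex. They entered the fit only to share the estimate of spread. SiC, Si1AK and Si2AK cells were harvested 72 h after transfection, and no time in culture is given for NT cells. All samples are of 1 cell line, and no mock sample with lipid but no RNA was analysed here, so lipid and duplex cannot be told apart. The labels do not state whether replicates came from separate cultures, and the spread behind every p-value may therefore be technical. Each array gave a 1-colour Cy3 signal from 0.2 µg of total RNA with an RNA integrity number of 9.

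Cells read long double-stranded RNA as a sign of viral infection. Toll-like receptors in the endosome and the helicases RIG-I and MDA5 in the cytosol pass the signal through adaptors to IRF and NF-kB transcription factors. These switch on interferons and inflammatory cytokines, and interferon then acts through JAK kinases and STAT factors on a large set of interferon-stimulated genes. Short synthetic duplexes can enter the same pathways, depending on sequence, chemistry and carrier. Cationic lipids, for their part, deliver their cargo through endosomes and lysosomes. A control siRNA is the usual baseline of a knockdown, so its own distance from untouched cells matters for reading the others.

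Levels below are log2 of the processed signal minus the 75th percentile of the array, so that 0 is that percentile and a difference of 1 is a doubling relative to it. A probe was kept where it was well above background on every array of SiC or on every array of NT. Each gene was represented by its brightest probe on average, which gave 27799 probes and 19751 genes, 13843 with a gene symbol. A gene was called at a limma adjusted p below 0.05.

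The SiC arrays did not form 1 group. The median processed signal was 270.9 on SiC replicate 1, against 28.6 and 34.6 on SiC replicates 2 and 3 and 23.5 to 58.7 on the 4 NT arrays. SiC replicate 1 had 90.5% of its probes well above background. SiC replicates 2 and 3 had 53.8% and 55.2%, and NT arrays had 52.7% to 58.5%. Among 1500 probes for olfactory and vomeronasal receptors, sensory genes mostly not expected in keratinocytes, 73.1% were well above background on SiC replicate 1. The share was 11.1% and 10.0% on SiC replicates 2 and 3, and 9.4% to 19.7% on NT arrays. Si2AK replicate 2 was raised as well, with 84.9% of all probes and 61.4% of the receptor probes. SiC replicate 1 shares slide 1 with NT replicates 1 and 2, while SiC replicates 2 and 3 share slide 2 with NT replicates 3 and 4. Results are therefore given with all 3 SiC arrays, with SiC replicates 2 and 3 alone, and within each slide.

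**Figure D1:**
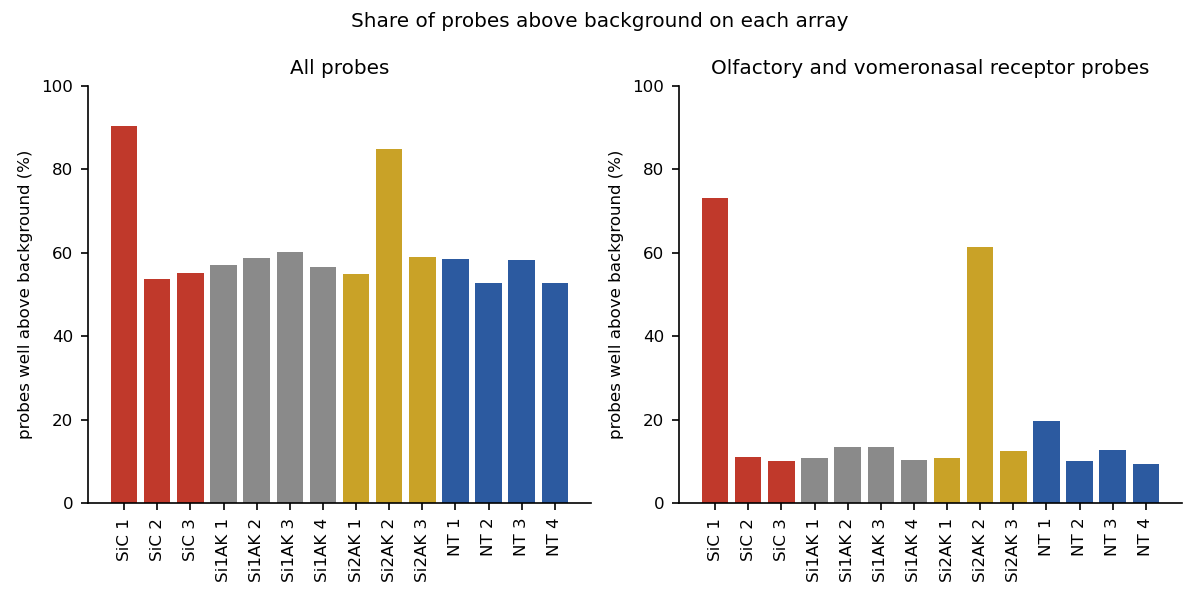
Share of probes well above background on each array (vertical axis, percent), over all probes at left and over 1500 olfactory and vomeronasal receptor probes at right; each bar is 1 array. SiC replicate 1 stands at 90.5% and 73.1%, far above SiC replicates 2 and 3 and all NT arrays, and Si2AK replicate 2 is the other raised array.

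The extra signal on SiC replicate 1 changed with the brightness of the gene. Against the NT arrays of its slide, the median difference of SiC replicate 1 was 1.94 over the 1649 genes with NT levels between -5 and -4. It was 1.35 over the 2182 genes between -4 and -3, and close to 0 (0.02) between -1 and 0. Over the 3649 genes above 4 it was -0.40. By these medians, dim genes stood higher and bright genes lower on this array. For SiC replicates 2 and 3 against the NT arrays of slide 2, the medians lay between -0.13 and 0.14 in every bin above -5. Below -6, all 41 genes had passed the filter through SiC, so their high differences (3.16, 2.84 and 2.68 for SiC replicates 1, 2 and 3) follow from the filter.

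**Figure D2:**
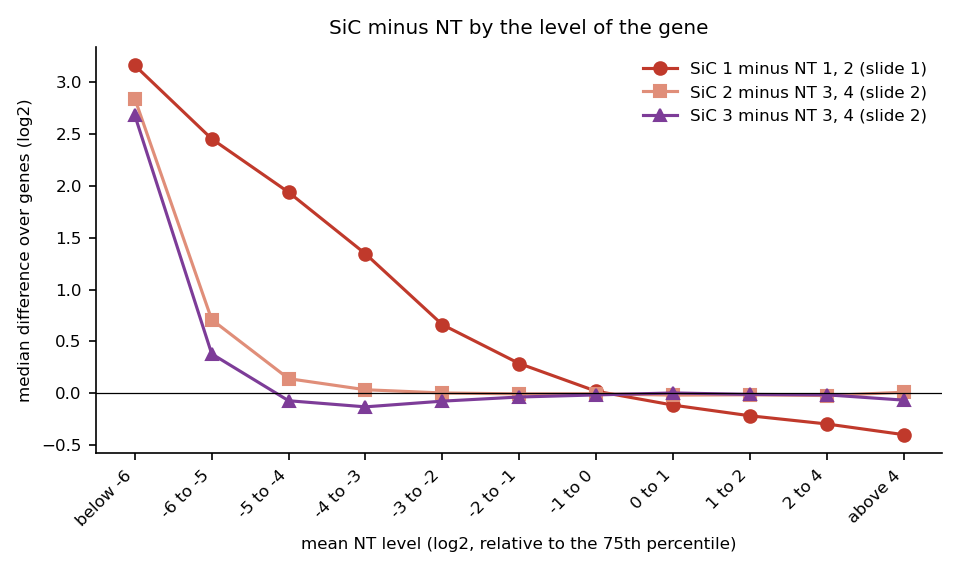
Median difference from the NT arrays of the same slide (vertical axis, log2) for each SiC replicate, over genes binned by mean NT level (horizontal axis, log2 relative to the 75th percentile). SiC replicate 1 runs from 3.16 in the dimmest bin to -0.40 in the brightest, while SiC replicates 2 and 3 stay near 0 in the bins above -5.

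Across 19708 genes, the difference of SiC replicate 1 on slide 1 and that of SiC replicates 2 and 3 on slide 2 had a Pearson r of 0.129 and a Spearman rho of 0.041. These are across genes, which are not independent replicates, and the arrays on the 2 sides are not shared. The signs matched in 53.5% of the genes. The SD over genes was 0.899 for SiC replicate 1 and 0.315 for SiC replicates 2 and 3. The 19708 genes include those that the filter kept through SiC alone, which it picked for being high there. Over the 18298 genes whose probe was above background on every SiC and NT array, r was -0.019 and rho 0.002. Signs matched in 53.1% of these. Levels of SiC replicates 2 and 3 correlated at 0.995, while SiC replicate 1 correlated with them at 0.9706 and 0.9613. Pairs of NT arrays lay between 0.9861 and 0.9914.

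Few genes separated SiC from NT by the test. With all 3 SiC arrays, limma called 1 of 19751 genes higher (0.00506%) and 0 lower. At an unadjusted p below 0.05 it passed 542 higher (2.74%) and 1038 lower (5.26%), 8% in all. Scaled instead to the probes above background on every array, which moved the median of all genes to 0.077, against -0.025 as reported, 957 were higher and 325 lower at that level. The balance of small changes thus turned with the scaling. With SiC replicates 2 and 3 alone, 0 genes were called, and an unadjusted p below 0.05 was reached by 345 higher (1.75%) and 410 lower (2.08%), 3.82% in all. The other tools and settings run gave between 0 and 11 called genes. The median 95% interval of a difference reached 0.318 to each side with all SiC arrays and 0.323 with SiC replicates 2 and 3. Smaller shifts in a typical gene were not detectable here. The interval is not adjusted for the 19751 genes tested, so larger shifts could go uncalled too. Ifit1, with a difference of 1.10 and all SiC arrays, was not called (limma adjusted p = 0.444).

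The called gene was Mrgprx2, a receptor gene. Its level was -1.42, -2.62 and -3.98 on SiC replicates 1 to 3, against -6.81, -7.11, -7.77 and -7.36 on NT replicates 1 to 4. All SiC arrays lay above all NT arrays. The probe was well above background on 3 of 3 SiC arrays, on 0 of 4 NT arrays and on 0 of the 7 Si1AK and Si2AK arrays. Since NT gave no more than a bound, SiC stood at least 7.33-fold higher (limma adjusted p = 0.0386, with measured means of -2.67 ± 1.28 in SiC and -7.26 ± 0.405 in NT, SD, n = 3 and 4). For this bound, each NT array was given its detection limit (the dimmest probe marked above background) or the probe's own signal, whichever was larger. SiC entered as the mean of its 3 arrays, with the raised SiC replicate 1 among them. The bound therefore holds only for this scaling and these arrays. In other settings the measured difference on the log2 scale went as low as 1.21, against 4.59 as reported. With SiC replicates 2 and 3 alone the limma adjusted p was 0.0731, and over 22 other settings it ranged from 3.98e-06 to 0.954 with a call in 7. The probe passed the filter through SiC alone, the group in which it is high, so the call describes a gene that the filter had already picked for its difference. The gene has 1 probe here, on chromosome 7, 55734081 to 55734140 of mm9, minus strand. It is shown because the one call of the comparison rests on it.
Mrgprx2 probe: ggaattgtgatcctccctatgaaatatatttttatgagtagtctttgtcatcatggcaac

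Mrgprx2 belongs to a set of 53 probes that were above background on all 3 SiC arrays and on no NT array, while 1 probe, of the exonuclease gene Trex2, showed the reverse (at least 1.37-fold lower in SiC). SiC replicate 1, with most of its probes above background, satisfies the mark nearly everywhere. On slide 2 alone, 159 probes were marked on both SiC arrays and neither NT array, against 279 marked on both NT arrays and neither SiC array. With a difference of at least 2 on the log2 scale these were 56 and 73. Detection by itself thus did not favour SiC within that slide.

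The other probes with high bounds did not pass the test as reported, though some did in other settings. Their bounds likewise used the mean of all 3 SiC arrays and hold only for this scaling. Lrrc10b, a leucine-rich repeat gene, stood at -3.80, -2.59 and -1.46 on the SiC arrays, against -6.68, -6.99, -7.78 and -7.38 on NT. SiC was at least 7.59-fold higher (limma adjusted p = 0.112, and 0.0731 with SiC replicates 2 and 3). The transcript listed as TC1600058 was at -2.76, -2.52 and -1.58 in SiC, against -6.67, -7.07, -7.82 and -7.38 in NT, at least 9.58-fold higher (adjusted p = 0.112). Cdh7, a cadherin of the nervous system named for its small p-value, had -3.65, -3.85 and -4.67 in SiC, against -6.82, -7.12, -7.88 and -7.46 in NT (adjusted p = 0.112). All 3 probes passed the filter through SiC alone, so a gap between SiC and NT follows from that choice. Of 22 other settings of the fit with all SiC arrays, Lrrc10b was called in 3, TC1600058 in 3 and Cdh7 in 4. Of 18 of the fit with SiC replicates 2 and 3, they were called in 5, 4 and 4. The remaining probes of the 8 with the highest bounds were those of Gm15319 (at least 9.18-fold), a lincRNA region of chromosome 8 (8.77), a lincRNA region of chromosome 13 (5.80), Sowaha (5.54) and 9230116L04Rik (5.41). Over 8 other probes of Gm15319, the lincRNA regions and Sowaha, SiC replicates 2 and 3 minus NT lay between -1.16 and 0.356, so these arrays did not repeat the difference. On SiC replicate 1 these probes stood between -3.59 and -1.81, against -7.20 to -4.68 on NT replicates 1 and 2. Among the 8 probe sequences, 2 words of 8 bases occurred in more than 1 probe and 0 in more than 2.

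**Figure D3:**
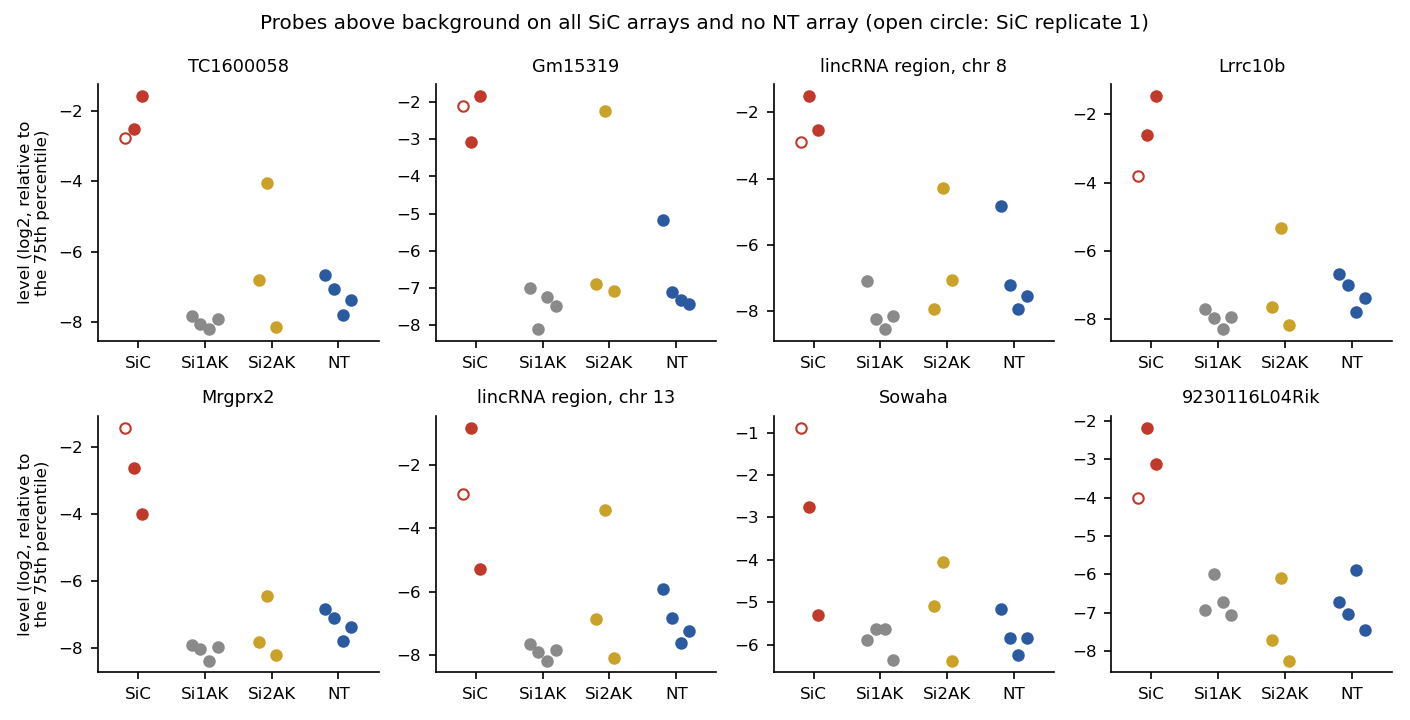
Level per array (vertical axis, log2 relative to the 75th percentile) of the 8 probes with the highest bounds among those above background on all SiC arrays and no NT array; each circle is 1 array, and the open circle is SiC replicate 1. All SiC arrays lie above all NT arrays except for SiC replicate 3 of Sowaha, at -5.31 against -5.16 on NT replicate 1.

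Genes of the interferon response leaned higher in SiC without a call. Of 60 interferon-stimulated genes listed, 49 were tested and 0 were called. At an unadjusted p below 0.05, 8 were higher and 0 lower with all SiC arrays, where 2.74% and 5.26% of all genes were. The 8 include Ccl5, which passed the filter through SiC alone, the group in which it is high. With SiC replicates 2 and 3, 6 were higher and 0 lower, where 1.75% and 2.08% of all genes were. With all SiC arrays the number higher was 4 when the 7 SiC and NT arrays were fitted alone and 4 with quantile normalization. Over all settings it ranged from 4 to 15, with 0 to 2 lower. Their median difference was 0.172 with all SiC arrays and 0.107 with SiC replicates 2 and 3, beside -0.025 and -0.033 for all genes. It was 0.11 on slide 1 and 0.075 on slide 2, beside -0.077 and -0.021 for all genes. The list was dim, with a median NT level of -0.638 against 0.5 for all genes. Dim genes stood higher on SiC replicate 1, and how far this touched the list was not tested. All 3 SiC arrays lay above all NT arrays for 5 of the 49, as for 1.71% of all genes. The median was above 0 in all 23 other settings of the first fit (0.055 to 0.275) and all 19 of the second (0.058 to 0.173).

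Ifit1, which binds foreign RNA lacking the methyl marks of cellular caps, led this list. Its level was -2.54, -3.10 and -3.08 on SiC replicates 1 to 3, against -3.99, -4.45, -3.83 and -3.75 on NT replicates 1 to 4. All SiC arrays lay above all NT arrays, with a difference of 1.10 ± 0.202 (SE; limma adjusted p = 0.444). On slide 1 the difference was 1.68. Its mean NT level of -4.01 lies between genes in which SiC replicate 1 had a median of 1.94 and of 1.35. On slide 2 it was 0.70. Levels averaged -2.90 in Si1AK and -2.08 in Si2AK. Oasl2, an oligoadenylate synthetase-like protein, stood at -2.29, -2.43 and -2.46 in SiC, against -3.02, -3.35, -2.94 and -3.01 in NT. Here too SiC and NT were apart, by 0.68 ± 0.144 (SE; adjusted p = 0.578), with 0.89 on slide 1 and 0.53 on slide 2. Its mean was -1.95 in Si1AK and -2.72 in Si2AK.

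Isg15, a ubiquitin-like modifier, was far brighter than these. It had 1.57, 2.01 and 2.03 in SiC, against 1.50, 1.64, 1.78 and 1.19 in NT. SiC replicate 1 lay among the NT arrays, while SiC replicates 2 and 3 lay above them, by 0.49 ± 0.14 (SE; limma adjusted p = 0.976). Gbp3, an interferon-induced GTPase, was at -2.62, -3.04 and -3.23 in SiC, against -3.57, -3.64, -3.29 and -3.24 in NT. SiC replicate 3 lay just above the highest NT array, and the difference on slide 2 was 0.13. The chemokine Ccl5 had -2.27 on SiC replicate 1, but -4.12 and -4.24 on SiC replicates 2 and 3, within the NT range of -4.94 to -3.98. Several of the strongest interferon-stimulated genes were too dim to test. Cxcl10, Rsad2, Ifit3 and Cmpk2 were above background on SiC replicate 1 and on no other SiC or NT array.

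The interferons themselves and the sensors gave no call either. Ifnb1, the first interferon made after double-stranded RNA is sensed, stood at -2.93, -7.33 and -7.79 on SiC replicates 1 to 3, against -6.14, -6.99, -7.75 and -7.41 on NT. It was above background on SiC replicate 1 alone, the array on which 73.1% of the receptor probes were also above it. Of 24 genes for interferons, their receptors and their signalling, 17 were tested, with 0 called and a median of 0.061 (0.033 with SiC replicates 2 and 3). At an unadjusted p below 0.05, 2 were lower and 0 higher with all SiC arrays, where 5.26% and 2.74% of all genes were. With SiC replicates 2 and 3, 1 was higher and 0 lower, where 1.75% and 2.08% of all genes were. The lower ones were Socs1, a feedback inhibitor (1.02, 1.47 and 1.61 in SiC, against 1.55 to 1.89 in NT), and Ifngr1, a chain of the interferon-gamma receptor (1.92, 2.28 and 2.23 in SiC, against 2.30 to 2.48 in NT). Ifna1 had -1.54 on SiC replicate 1, and -2.81 and -3.19 on SiC replicates 2 and 3, against -3.18 to -2.80 on NT. Ifngr2, the other chain of that receptor, had 1.51, 1.98 and 2.02 in SiC, against 1.66, 1.71, 1.70 and 1.75 in NT.

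Of 23 sensors and adaptors of foreign nucleic acids, 21 were tested, 0 called, and 0 reached an unadjusted p below 0.05 with all SiC arrays. Of all genes, 8% reached it. With SiC replicates 2 and 3, 1 of the 21 was higher and 0 lower, where 1.75% and 2.08% of all genes were. The median of the 21 was 0.082 (0.055 with SiC replicates 2 and 3). Ddx58, which encodes RIG-I, was at 1.72, 1.95 and 1.92 in SiC, against 1.93, 1.78, 1.72 and 1.80 in NT, and the groups overlapped. Ifih1, which encodes MDA5, had -1.78, -2.13 and -2.39 in SiC, against -2.16, -2.80, -2.39 and -2.45 in NT. The difference of 0.35 ± 0.169 (SE; limma adjusted p = 0.595) came to 0.16 on slide 2. Eif2ak2, the kinase PKR, overlapped as well (0.54, 1.03 and 1.07 in SiC, against 0.49, 0.64, 1.16 and 0.83 in NT). Tlr3, the endosomal receptor for double-stranded RNA, was above background on 1 SiC and 1 NT array. Irf7, itself induced by interferon, was at -1.60 on SiC replicate 1 and at -3.72 and -3.25 on SiC replicates 2 and 3, against -3.88 to -2.74 on NT. Ikbke, a kinase of IRF factors, was the one member for which SiC replicates 2 and 3 (-0.12 and 0.01) lay above every NT array (-0.67 to -0.34). Of all genes, 5.49% had SiC replicates 2 and 3 above every NT array. On SiC replicate 1, Ikbke was at -0.53.

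Targets and regulators of NF-kB leaned higher in SiC, again without a call. Of 38 listed, 35 were tested and 0 were called. At an unadjusted p below 0.05, 14 were higher and 0 lower with all SiC arrays, where 2.74% and 5.26% of all genes were. The 14 include Tnf, which passed the filter through SiC alone, the group in which it is high. With SiC replicates 2 and 3, 15 were higher and 0 lower, where 1.75% and 2.08% of all genes were. Over all settings the number higher ranged from 8 to 18 in each fit, and the number lower from 0 to 5 in the first. The median difference was 0.299 and 0.251 in these fits, with 29 and 32 of 35 members above 0, where 8975 and 8236 of 19751 genes were. Both SiC replicates 2 and 3 exceeded every NT array for 15 members, as for 5.49% of all genes. The median was 0.349 on slide 2 and 0.075 on slide 1. It was above 0 in all 23 other settings of the first fit (0.075 to 0.401) and all 19 of the second (0.189 to 0.349).

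**Figure D4:**
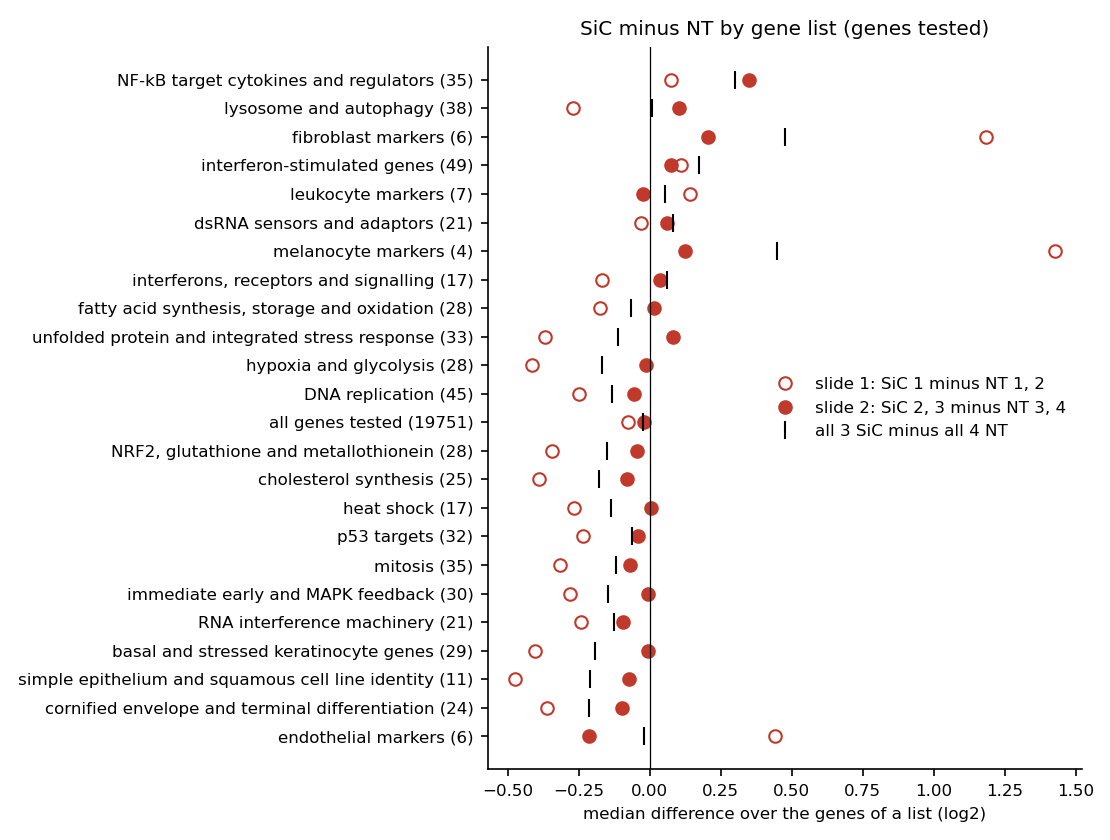
Median difference between SiC and NT (horizontal axis, log2) over the tested genes of each list, with the number of genes in parentheses; open circles are slide 1, filled circles slide 2 and ticks all arrays. The NF-kB list is highest on slide 2 at 0.349, and most lists of bright genes lie below 0 on slide 1 and near 0 on slide 2.

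Cytokines and chemokines made up most of these members. Ccl7, a monocyte chemoattractant, had 0.23, 0.17 and 0.06 in SiC, against -0.54, -0.43, -0.84 and -0.91 in NT. All SiC arrays lay above all NT arrays, by 0.83 ± 0.182 (SE; limma adjusted p = 0.578), with 0.72 on slide 1 and 0.99 on slide 2. Means were -0.40 in Si1AK and 0.28 in Si2AK. Csf3, the granulocyte growth factor G-CSF, was at 0.86, 1.45 and 1.89 in SiC, against 0.81, 0.64, 0.16 and 0.51 in NT. SiC was again above NT throughout, but by 1.33 on slide 2 and 0.13 on slide 1 (adjusted p = 0.595 with all SiC arrays and 0.912 with SiC replicates 2 and 3). Il6, a cytokine of the acute response, had -1.64, -1.19 and -0.74 in SiC, against -1.68, -1.77, -2.05 and -2.28 in NT. Its difference was 1.21 on slide 2 and 0.09 on slide 1. Il1b, the secreted interleukin-1, was at -2.17, -2.53 and -2.16 in SiC, against -2.87, -2.70, -2.77 and -2.71 in NT, apart on both slides (0.61 on slide 1, 0.39 on slide 2). Il1a had 1.75, 2.01 and 2.30 in SiC, against 1.66, 1.36, 1.58 and 1.30 in NT.

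For the bright chemokines the slides parted. Ccl2, a monocyte chemoattractant, was at 5.96 and 6.04 on SiC replicates 2 and 3 and at 5.18 on SiC replicate 1, against 5.04, 5.13, 5.19 and 5.12 on NT replicates 1 to 4. SiC replicates 2 and 3 thus stood 0.88 ± 0.207 (SE; limma adjusted p = 0.976) above NT, while SiC replicate 1 lay within it. Cxcl1, which draws neutrophils, did likewise (3.69, 4.25 and 4.62 in SiC, against 3.81, 3.79, 3.40 and 3.30 in NT). The bright genes on SiC replicate 1 were lowered by a median of 0.40 above a level of 4 and 0.30 between 2 and 4, and how far this touched Ccl2 and Cxcl1 was not tested. Cxcl2, of the same family, had -1.30, -1.39 and -0.90 in SiC, against -1.47, -1.83, -1.99 and -2.10 in NT.

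Regulators of the pathway were among the members with a lean as well. Nfkbiz, an inducible nuclear partner of NF-kB, was at -0.09, 0.09 and 0.19 in SiC, against -0.45, -0.69, -0.31 and -0.59 in NT, without overlap. Nfkb1, which encodes the p50 subunit, had 0.96, 0.95 and 0.90 in SiC, against 0.79, 0.70, 0.63 and 0.59 in NT. Nfkbia, the inhibitor that closes the feedback loop, was at 5.18, 5.87 and 5.99 in SiC, against 5.32, 5.59, 5.47 and 5.69 in NT, and only SiC replicates 2 and 3 were above the NT range. Tnf had -2.75 on SiC replicate 1, and -4.97 and -4.63 on SiC replicates 2 and 3, against -5.48 to -4.50 on NT, where 1 of 4 arrays was above background. Cebpd, a transcription factor of the acute phase outside the list, was at 3.22, 3.96 and 4.11 in SiC, against 3.32, 3.40, 3.16 and 3.25 in NT (limma adjusted p = 0.256 with SiC replicates 2 and 3).

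**Figure D5:**
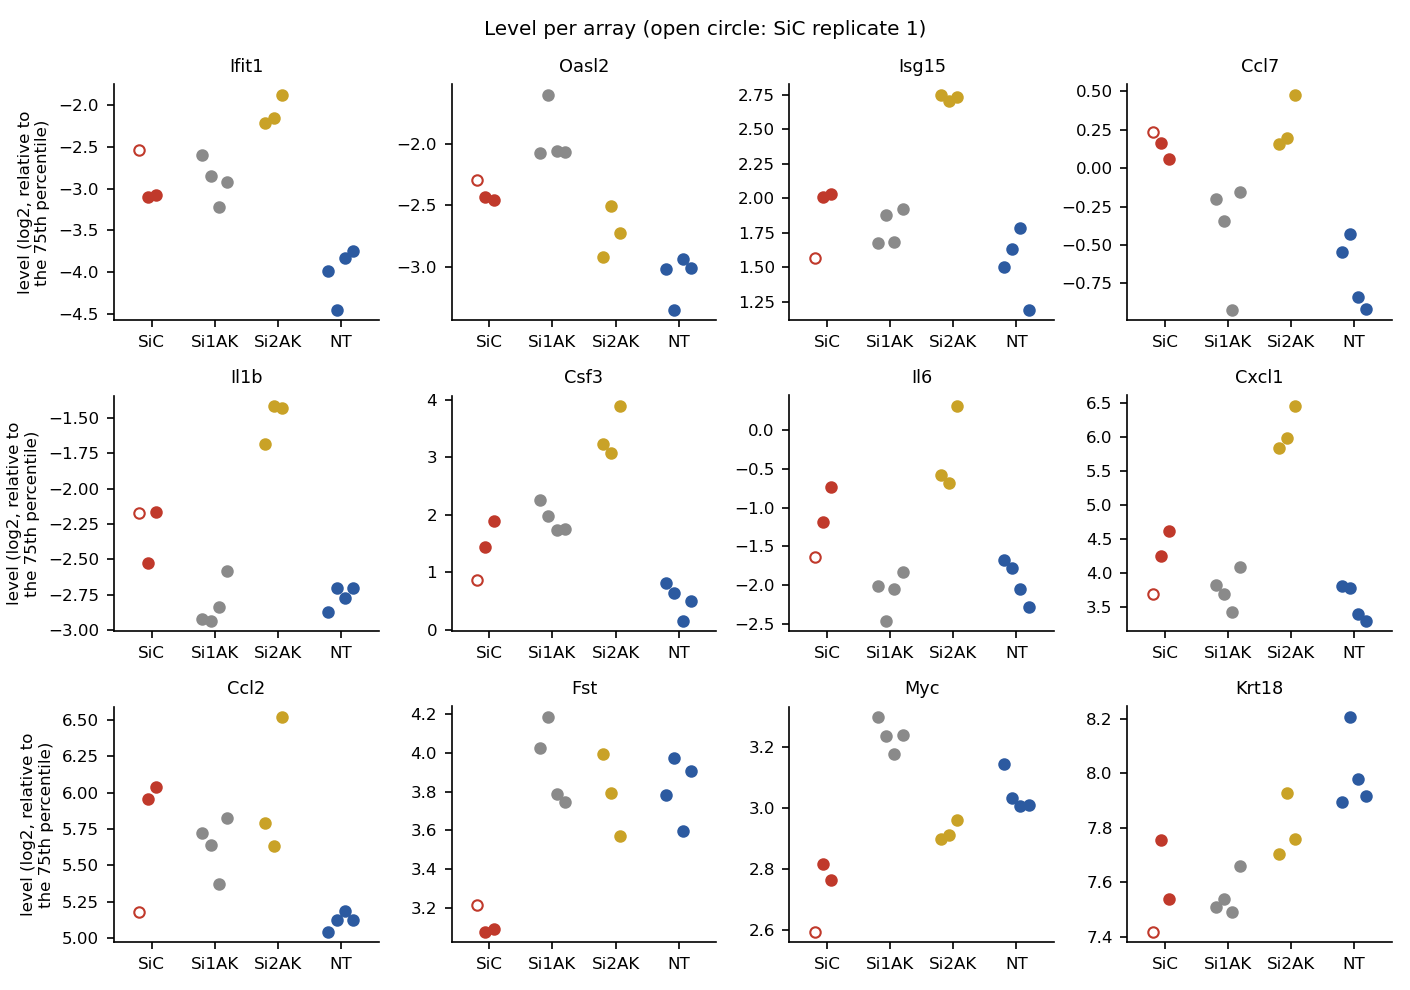
Level per array (vertical axis, log2 relative to the 75th percentile) of 12 genes named in the text; each circle is 1 array and the open circle is SiC replicate 1. SiC lies above NT without overlap for Ifit1, Oasl2, Ccl7, Il1b, Csf3 and Il6 and below it for Fst, Myc and Krt18, while for Isg15, Cxcl1 and Ccl2 SiC replicate 1 lies within the NT range.

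The promoters of leading members were searched for DNA words that these pathways are known to use. Sequences are the 250 bases before and 50 after the start of the gene, from RefSeq on GRCm38.p6, and were picked after the values were seen. The interferon-stimulated response element was searched as GAAA and GAAA with 2 bases of any kind between them (TTTC and TTTC on the other strand). A strict kappa-B word was searched as GGGA and TTTCC with 1 base between them (GGAAA and TCCC on the other strand). The 2 words do not overlap in the promoters printed. The first was in 1131 of 32851 promoters (3.44%), in 15 of 36 interferon-stimulated genes with a promoter in the table and in 0 of 26 NF-kB list members. The second was in 135 promoters (0.411%), in 7 of the 26 NF-kB list members and in 1 of the 36 interferon-stimulated genes. The lists were compiled from known targets, so these shares describe the lists and not the response. Capitals mark the matches. Ifit1 holds 2 of the first kind, and Cxcl2 and Il6 hold 1 each of the second. Neither word was in the promoters of Oasl2, Psmb8, Xaf1, Il1a, Il1b, Lif, Bcl3, Tnf and Nfkbie.
Ifit1 promoter, chr19:34640639-34640938, plus strand: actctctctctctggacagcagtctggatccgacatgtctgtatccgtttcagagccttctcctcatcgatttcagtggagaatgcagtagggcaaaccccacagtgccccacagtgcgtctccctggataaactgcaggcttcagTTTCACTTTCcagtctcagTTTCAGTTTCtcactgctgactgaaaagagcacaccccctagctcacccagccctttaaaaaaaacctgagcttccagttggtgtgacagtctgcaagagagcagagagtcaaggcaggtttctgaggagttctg
Cxcl2 promoter, chr5:90903649-90903948, plus strand: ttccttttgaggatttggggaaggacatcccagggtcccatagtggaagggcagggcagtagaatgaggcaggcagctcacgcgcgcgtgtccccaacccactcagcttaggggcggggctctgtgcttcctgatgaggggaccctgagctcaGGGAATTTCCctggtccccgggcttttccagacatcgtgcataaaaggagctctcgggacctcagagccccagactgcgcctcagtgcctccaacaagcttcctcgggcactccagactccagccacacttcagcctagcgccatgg
Il6 promoter, chr5:30012864-30013163, plus strand: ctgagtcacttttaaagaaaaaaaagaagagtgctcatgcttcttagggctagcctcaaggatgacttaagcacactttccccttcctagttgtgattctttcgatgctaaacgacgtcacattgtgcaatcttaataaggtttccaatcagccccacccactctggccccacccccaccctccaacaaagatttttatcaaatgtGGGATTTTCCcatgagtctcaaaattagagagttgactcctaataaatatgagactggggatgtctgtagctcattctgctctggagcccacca

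Among the other genes with the smallest p-values and no overlap between SiC and NT, Slc39a4, an intestinal zinc importer, did not pass either. It was at -0.70, -0.52 and -0.43 in SiC, against -1.24, -1.45, -1.29 and -1.07 in NT. The groups were apart on both slides, by 0.65 and 0.71, with 0.71 ± 0.11 over all (SE; limma adjusted p = 0.112). It was called in 2 of 23 other settings, with the slide as a block and with array weights, and its adjusted p ranged from 0.00599 to 0.954. Its mean was 0.006 in Si1AK. Matn2, a matrix protein, had -0.07, -0.34 and -0.29 in SiC, against -0.58, -0.83, -0.78 and -0.67 in NT (adjusted p = 0.444). 2610044O15Rik8 was at -0.66 and -0.80 on SiC replicates 2 and 3 and at -1.32 on SiC replicate 1, against -1.53 to -1.44 on NT, but its other probe gave -0.016 where this one gave 0.56.

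On the lower side no gene was called. Among genes with a symbol and no overlap, Fst, which encodes follistatin, a secreted inhibitor of activin, came nearest. It had 3.21, 3.08 and 3.09 in SiC, against 3.79, 3.97, 3.60 and 3.91 in NT. The groups were apart by -0.69 ± 0.135 (SE; limma adjusted p = 0.49), by -0.67 on each slide. Means were 3.94 in Si1AK and 3.79 in Si2AK. Stra6, a membrane receptor for vitamin A uptake, was at 3.1, 3.35 and 3.55 in SiC, against 3.85, 3.76, 3.87 and 4.10 in NT. Myc, the growth-promoting transcription factor, had 2.60, 2.82 and 2.76 in SiC, against 3.14, 3.03, 3.01 and 3.01 in NT (-0.32 ± 0.072, SE; adjusted p = 0.578). Rad54l, of homologous recombination, was at 0.59, 0.72 and 0.76 in SiC, against 1.08, 1.04, 1.03 and 1.16 in NT. These genes were picked among those with all SiC arrays below all NT arrays (4.67% of all genes), so their separation follows from the choice. The differences were small. SiC replicates 2 and 3 were both below all NT arrays in 9.05% of genes. For Nrg2, Ttc9c and Zbtb11, also among the 12 lowest by p in one of the fits, another probe did not repeat the difference (0.106, -0.056 and 0.168).

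Uptake, lipid and stress genes were examined because a lipid carrier passes through endosomes. Of 39 genes for lysosomes and autophagy, 38 were tested and 0 called. Their median was 0.007 with all SiC arrays and 0.154 with SiC replicates 2 and 3, where 6 were higher and 0 lower at an unadjusted p below 0.05 (1.75% and 2.08% of all genes) and 2 to 12 were higher over all settings. Within slides it was -0.272 on slide 1 and 0.104 on slide 2. Sqstm1, an autophagy cargo receptor, had 1.59, 2.54 and 2.54 in SiC, against 1.75, 1.98, 2.12 and 2.12 in NT. Npc1, the lysosomal cholesterol exporter, was at 0.11, 0.51 and 0.62 in SiC, against 0.25, -0.06, 0.27 and 0.27 in NT. In both, SiC replicates 2 and 3 were above all NT arrays and SiC replicate 1 was not.

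The 25 cholesterol synthesis genes had a median of -0.179, and -0.049 with SiC replicates 2 and 3, with 5 and 3 lower and 0 higher at an unadjusted p below 0.05 (5.26% and 2.08% of all genes were lower). Over all settings 0 to 13 and 0 to 4 were lower. Of 33 tested genes of the unfolded protein and integrated stress response, 5 were higher and 0 lower with SiC replicates 2 and 3. This is at an unadjusted p below 0.05, where 1.75% and 2.08% of all genes were (2 to 8 of the list higher over all settings). With all SiC arrays 1 was higher and 1 lower, where 2.74% and 5.26% of all genes were. Their median was 0.002 and -0.114 in these fits. Ddit3, a transcription factor of prolonged stress, had 0.36, 1.51 and 1.55 in SiC, against 0.61, 0.65, 1.10 and 0.83 in NT. Atf3 was at -0.55, 0.67 and 0.75 in SiC, against -0.20, -0.45, 0.04 and 0.17 in NT. For both, SiC replicate 1 and SiC replicates 2 and 3 lay on opposite sides of the NT range.

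The machinery that handles small RNAs leaned lower in SiC without a call. Of 23 members, 21 were tested and 0 called. Their median was -0.128 (-0.091 with SiC replicates 2 and 3), beside -0.025 and -0.033 for all genes. With all SiC arrays 16 of 21 were below 0, where 10776 of 19751 genes were. The lean was not particular to this list. Below 0 were also 22 of 25 cholesterol synthesis and 39 of 45 DNA replication genes, but 13 of 49 interferon-stimulated and 6 of 35 NF-kB list genes. With SiC replicates 2 and 3, 5 of 21 were above 0, beside 6 of 25 cholesterol synthesis and 16 of 45 DNA replication genes. At an unadjusted p below 0.05, 3 of the 21 were lower and 0 higher with all SiC arrays (1 to 6 lower over all settings). Of all genes 5.26% and 2.74% were. With SiC replicates 2 and 3, 1 was lower and 0 higher, where 2.08% and 1.75% of all genes were. Tsn, a subunit of the nuclease C3PO that helps to remove the passenger strand, was at 3.36, 3.58 and 3.41 in SiC, against 3.77, 3.94, 3.73 and 3.58 in NT. Fkbp4, a co-chaperone, had 1.47, 1.90 and 1.89 in SiC, against 2.06, 2.20, 1.98 and 2.00 in NT. The list's median was -0.242 on slide 1, where all genes between 2 and 4 had -0.30. On slide 2 it was -0.094, where those genes had -0.022 and -0.015 on SiC replicates 2 and 3.

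Growth and keratinocyte genes stood lower on SiC replicate 1 than on SiC replicates 2 and 3. Of 45 DNA replication genes, 10 were lower and 0 higher at an unadjusted p below 0.05 with all SiC arrays. Of all genes 5.26% and 2.74% were. With SiC replicates 2 and 3, 1 was lower and 0 higher, where 2.08% and 1.75% of all genes were. With all SiC arrays the number lower was 2 when the 7 SiC and NT arrays were fitted alone, 1 with quantile normalization, and 0 to 16 over all settings. Their median was -0.25 on slide 1 and -0.055 on slide 2. Of 35 mitosis genes, 7 were lower and 1 higher with all SiC arrays, and 0 in either direction with SiC replicates 2 and 3. The number lower with all SiC arrays ranged from 0 to 15 over all settings, and for the keratinocyte genes below from 1 to 14. The one higher was Cenpf, a kinetochore protein with a dim probe, at -2.07 on SiC replicate 1 and -3.59 and -3.39 on the others, against -4.57 to -3.65 on NT. Of 29 tested basal and stressed keratinocyte genes, 7 were lower and 0 higher with all SiC arrays, and 4 lower and 1 higher with SiC replicates 2 and 3, with slide medians of -0.403 and -0.008. Col17a1, a hemidesmosome collagen, had 4.13, 4.74 and 4.62 in SiC, against 5.01, 5.06, 4.96 and 4.88 in NT. Whether the brightness-dependent shift of SiC replicate 1 made these lists lower was not tested.

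Of 14 markers of a squamous epithelial line, 11 were tested, and Krt19, Cdh1 and Cldn4 did not pass the filter. At an unadjusted p below 0.05, 5 of the 11 were lower and 0 higher with all SiC arrays. Of all genes 5.26% and 2.74% were. With SiC replicates 2 and 3, 3 were lower and 0 higher, where 2.08% and 1.75% of all genes were. Over all settings 1 to 7 and 0 to 3 were lower in these fits. Keratins of stratified epithelium were bright in both groups. Krt5 was at 8.08, 8.47 and 8.28 in SiC, against 8.45, 8.72, 8.54 and 8.62 in NT, and Krt14 between 7.0 and 7.11 in SiC, against 7.11 to 7.38 in NT. Trp63 was between 3.67 and 4.09 in SiC, against 4.03 to 4.23 in NT. Vim, a mesenchymal filament on the same list, was bright too, between 7.55 and 7.95 in SiC, against 7.83 to 8.16 in NT. Krt18, of simple epithelia, was lower in SiC without overlap (7.42, 7.76 and 7.54, against 7.89, 8.21, 7.98 and 7.92 in NT), by -0.43 ± 0.105 (SE; limma adjusted p = 0.595). Krt8 and Epcam, also epithelial, were dim. Krt8 was at -1.51 and -2.28 on SiC replicates 1 and 3, with no value on SiC replicate 2, against -2.27 to -1.81 on NT. Epcam had -0.98, -3.45 and -4.39 in SiC, against -3.98 to -2.48 in NT. Of markers of other cells, 6 of 12 passed the filter for fibroblasts, 7 of 16 for leukocytes, 6 of 10 for endothelium and 4 of 8 for melanocytes. Their medians were 0.474, 0.052, -0.021 and 0.447 with all SiC arrays. With SiC replicates 2 and 3 they were 0.138, 0.07, -0.183 and 0.051, and on slide 1 they were 1.19, 0.141, 0.439 and 1.43. Some of these markers were bright in both groups. The myeloid integrin Itgam was at 3.65, 3.41 and 2.96 in SiC, against 3.14 to 3.63 in NT, and the endothelial receptor Kdr between 2.85 and 3.21 in SiC, against 3.11 to 3.70 in NT. Others were dim. The melanocyte gene Tyr was at -1.03 on SiC replicate 1, and -2.93 and -3.35 on SiC replicates 2 and 3, against -3.43 to -2.44 on NT. The endothelial gene Pecam1 had -1.30, -3.70 and -4.03 in SiC, against -4.12 to -3.24 in NT.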

How the data were processed

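The scanner files come from Feature Extraction 10.7.3.1, per the file headers. Their deposited processed signal is an intensity, corrected for background and spatial trends on each array but not scaled across arrays. Marks for detected, saturated or uneven spots are 0 or 1, a unit other than intensity, per the file headers. The authors also deposited a table of log2 values, used as an alternative. The submitters' processing notes name limma without a version.

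Of 62976 spots per array, 59305 were no controls. Uneven or outlying spots were left out and spots of a probe averaged, giving 55681 probes, none saturated. All 14 arrays were fitted in limma 3.58.1 (R 4.3.3) with lmFit, eBayes and Benjamini-Hochberg adjustment, leaving 10 residual degrees of freedom, and again with SiC replicate 1 as its own group (9 degrees of freedom). All groups share the estimate of spread. Missing values in 158 genes were dropped. Names came from RefSeq accessions (GRCm38.p6) for 27656 probes. Other probes kept the array's name, or took the current symbol where that name was an unambiguous synonym of a RefSeq gene. Probe coordinates are those of the array, on mm9.

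The comparison, the 23 gene lists and the alternatives were chosen with earlier results of these data known. Named genes include the 12 per direction with the smallest adjusted p in each fit. They were taken among genes with a symbol whose SiC arrays in that fit did not overlap NT. Their separation follows from that choice. The others are all tested sensors and interferon genes, the 8 highest detection bounds, and list members. Where no member of a list was called, its members were chosen after their values were seen. Alternatives changed the arrays used, blocks, weights, scaling, background correction, filter and the rule for several probes. The fit was tested on simulated data. Their spread came from a fit without SiC replicate 1 and Si2AK replicate 2, so the test does not cover those raised arrays. The number of arrays limits every value. Levels in Si1AK and Si2AK are given beside some genes, with no test against them.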

Additional observations from a re-analysis of the deposited data

Results flagged for a closer look

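Of 74 named genes with all 4 NT values, 4 had 1 NT array far from the other 3, measured as the gap to the nearest array over the whole range. Chance gives about 1 in 20. For Socs3, a feedback inhibitor of cytokine signalling, the ratio was 0.991, with NT replicate 4 at 3.55 and the others at 3.87. For Fam47e it was 0.923, with NT replicate 1 at -2.45 and the others from -2.65 to -2.63. For Rcan1, an inhibitor of calcineurin, it was 0.856, with NT replicate 1 at 0.87 and the others at 0.97 to 0.98. For Il10rb, a receptor chain, it was 0.833, with NT replicate 1 at 0.13 and the others from -0.43 to -0.33.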

How the results depend on the processing

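The number of called genes depended on the arrays and the scaling, and the cause was not tested. With all SiC arrays, 1 gene was called higher and 0 lower as reported. Called higher were 0 with the 7 SiC and NT arrays alone, with the replicate block, with SiC replicate 1 as its own group, on slide 1 alone, with the 75th percentile over probes above background everywhere, with normexp, in the authors' value table, with no filter and with probes above background on all 7 arrays. They were 3 with the slide as a block, 11 without Si2AK replicate 2, 9 (and 1 lower) with array weights and 5 without SiC replicate 1 and Si2AK replicate 2. Leaving out 1 SiC or NT array gave 0 to 8 higher and 0 to 1 lower, with the 8 and 1 without SiC replicate 3. With SiC replicates 2 and 3, 0 genes were called as reported. Called higher were 2 with the slide as a block, 5 without Si2AK replicate 2, 7 with array weights, 11 with quantile normalization, 10 in the authors' table and 1 on slide 2 alone. Leaving out 1 array gave 0 to 6 higher and 0 to 2 lower, with the 6 and 2 without SiC replicate 3 and 1 higher without NT replicate 1. Where 1 SiC array was left, it is assumed to vary like the other groups. Replicate numbers are shared by SiC and NT, but deviations of same-numbered arrays correlated at 0.636, 0.04 and 0.244, so the numbers were not taken to pair the arrays. Signal over background limits the dim genes, where the authors' table gave Mrgprx2 a difference of 1.27 and normexp 1.21, against 4.59 as reported.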
